A study of Mus musculus with 2 samples.

Results

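Titin (Ttn), the myomesins (Myom1, Myom2, Myom3), the myosin-binding proteins C and H (Mybpc1, Mybpc2, Mybpc3, Mybph) and obscurin-like 1 (Obsl1) were followed in mouse hindlimb skeletal muscle. These 9 genes were taken by symbol from the 44787 gene rows of the deposited table, where each has a single row. The study holds 1 library from wild-type (WT) muscle and 1 library labelled SRSF1-MKO, both from C57BL/6 mice at postnatal day 30, and SRSF1 is a serine/arginine-rich splicing factor. The labels do not spell out MKO, and neither the driver of the deletion nor the number of animals in a library is given in the sources used here. The deposited values are FPKM, reads per kilobase of gene model and per 1000000 mapped reads, so they can be compared between genes. With 1 library per genotype no difference below has a replicate check and no test between genotypes was made. The intervals given are exact binomial 95% intervals on reads, and they cover counting error only.

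Titin is a giant protein that runs from the Z-disc along the thick filament to the M-band and acts as a spring and a ruler of the sarcomere. In the M-band, myomesins cross-link neighbouring thick filaments, and obscurin-like 1 binds titin and myomesin there. Myosin-binding proteins C sit in stripes on the thick filament and modulate its contact with actin; in mammals there is a slow-type gene (Mybpc1), a fast-type gene (Mybpc2) and a cardiac gene (Mybpc3). Many of these proteins exist in forms made by alternative splicing, which a single value per gene does not resolve.

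The libraries themselves differed in ways that bear on every value. Srsf1 had 13.7 FPKM in the WT library compared with 6.70 in SRSF1-MKO, a ratio of 0.489 (interval 0.450 to 0.533), although the table places this gene on an alternate scaffold. Xist, the transcript of the inactive X chromosome, measured 0.00482 FPKM in WT against 8.15 FPKM in SRSF1-MKO, and the Y-linked Ddx3y was at 11.7 FPKM in WT and listed at 0 in SRSF1-MKO. Genotype and sex-linked content therefore cannot be told apart in these libraries. The 2 description lines of each sample name opposite columns of the table, and columns were read by the genotype in their names; read the other way, every direction below would turn. The defining fibre markers were abundant in both libraries, with 7 of 7 measured, but their summed level was 71403 FPKM in WT against 44272 FPKM in SRSF1-MKO. Over genes whose mean was at least 5 FPKM the median log2 ratio was 0.32, so values are also given relative to that median. In bulk muscle, fewer cells of a type and less RNA per cell cannot be told apart.

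The fast-type and slow-type myosin-binding proteins C differed in opposite directions and Myom3 was far higher in SRSF1-MKO. In FPKM, titin, Myom2 and Mybph lay close to their WT levels. Relative to the all-gene median, the log2 ratios of titin, Myom2 and Mybph were -0.45, -0.52 and -0.48. Of the 9 genes, 8 reached a mean of 1 FPKM and Mybpc3 did not. Differences were taken on the log2(FPKM + 1) scale, where low genes appear less different than they are. Myom3 and Mybpc1, 2 of the 8, had at least 2-fold more in SRSF1-MKO, against 9.44% of the 10478 genes at that mean. At least 2-fold lower was 1 of the 8 (Mybpc2), against 3.12% of those genes, and the other 5 were within 2-fold. With the all-gene median subtracted, 1 was higher (Myom3) and 2 were lower (Mybpc2 and Obsl1), against 5.13% and 6.29% of genes. The median log2 ratio of the 8 was -0.18, beside 0.21 over all genes at that mean, and 6 of the 8 lay below that all-gene median.

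**Figure D1:**
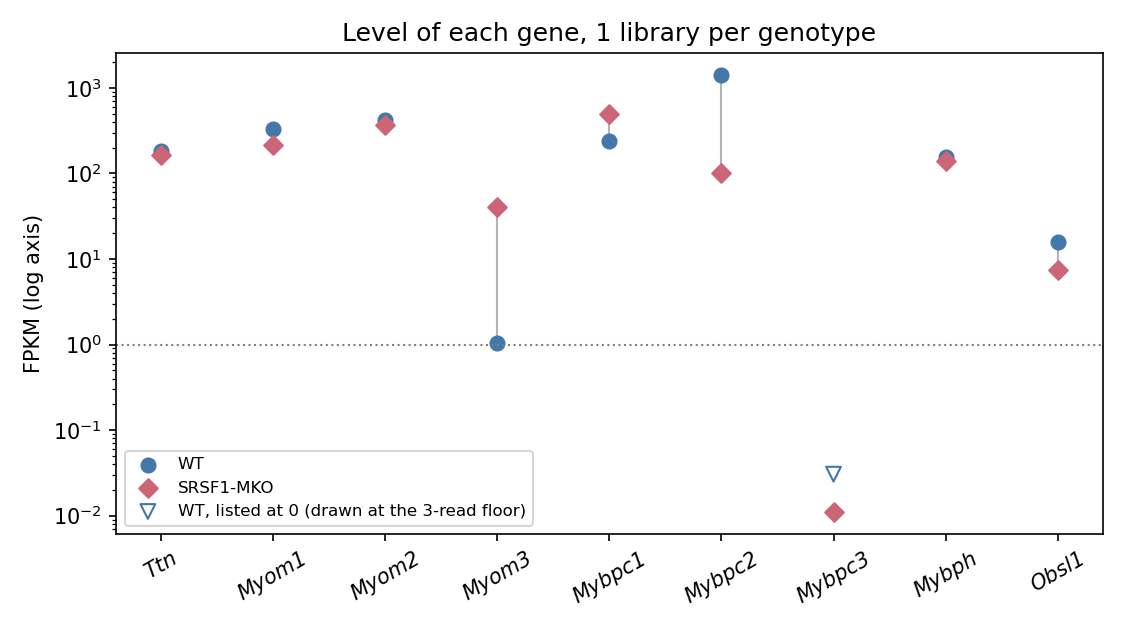
FPKM (log axis) of the 9 genes in the WT library (circles) and the SRSF1-MKO library (diamonds), with a dotted line at 1 FPKM and an open triangle at the 3-read floor where WT is listed at 0. Ttn, Myom2 and Mybph have overlapping points, Mybpc2 drops from 1419 to 101 FPKM, and Myom3 goes from 1.05 to 40.7 FPKM.

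Titin (ENSMUSG00000051747.14, GRCm38 chromosome 2, 76703980 to 76982547, minus strand; 347 exons in its longest GENCODE transcript) was at 180 FPKM in the WT library against 165 in SRSF1-MKO. About 449152 and 379998 reads stood behind these values, 1.94% and 1.78% of each library. The levels were thus nearly alike, at a ratio of 0.917 (interval 0.913 to 0.921), a log2 ratio of -0.12 and -0.45 relative to the all-gene median. The counting interval excludes 1 because so many reads fall on this very long transcript, but it holds no variation between animals. Titin ranked 161st among all genes by FPKM in WT and 262nd in SRSF1-MKO, and 26.0% of the 10478 genes had a lower log2 ratio. The reads were summed over the gene, so use of its spring exons was not measured. Of the genes known to regulate titin splicing, Rbm20, the main repressor of spring exons in heart muscle, had 7.28 FPKM in the WT library compared with 12.2 in SRSF1-MKO. The muscle splicing factor Rbm24 was at 42.4 and 67.9 FPKM, and Ptbp1, the polypyrimidine tract-binding protein, at 2.99 and 1.76 FPKM. Of these 3 regulators, 0 passed 2-fold, as was so for most of the 10478 genes (9.44% were higher and 3.12% lower).

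Of the M-band genes, the myomesins of fast and slow fibres behaved differently. Myom2, the M-protein of fast fibres (ENSMUSG00000031461.4, chromosome 8, 15057653 to 15133541, plus strand), measured 426 FPKM in WT against 373 FPKM in SRSF1-MKO. This is a ratio of 0.874 (interval 0.862 to 0.885), with a log2 ratio of -0.19 and -0.52 relative to the all-gene median. Myom1, the myomesin found in all striated fibres (ENSMUSG00000024049.15, chromosome 17, 71002633 to 71126856, plus strand), stood at 328 FPKM in the WT library against 215 in SRSF1-MKO. It was 1.53-fold lower (interval 1.502 to 1.55), on 42671 and 25794 reads. The log2 ratio of Myom1 was -0.61, and -0.93 relative to the all-gene median. Myom1 was therefore lower than Myom2 in each library, and the ratio of Myom2 to Myom1 FPKM was 1.30 in WT and 1.73 in SRSF1-MKO.

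Myom3, the myomesin known from slow and intermediate fibres (ENSMUSG00000037139.15, chromosome 4, 135759715 to 135815564, plus strand), had 1.05 FPKM in the WT library compared with 40.7 in SRSF1-MKO. It rested on 135 reads in WT and 4852 in SRSF1-MKO, and was 39.0-fold higher (interval 32.8 to 46.6). Its log2 ratio of 4.35 was the 20th highest among the 10478 genes. In WT it was the least abundant measured myomesin by a wide margin, with a Myom1 level 314-fold that of Myom3; in SRSF1-MKO that ratio was 5.28.

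Obsl1, the cytoskeletal adaptor of the M-band (ENSMUSG00000026211.17, chromosome 1, 75479310 to 75506452, minus strand), measured 15.8 FPKM in WT against 7.46 FPKM in SRSF1-MKO. The lower value in SRSF1-MKO gave a 2.12-fold difference in FPKM (interval 1.86 to 2.42, on at least 737 and 321 reads). On the log2(FPKM + 1) scale its ratio was -0.99, just short of 2-fold, and relative to the all-gene median it was -1.31. The location printed in the deposited table covers 37.3% of the GENCODE gene, so the value may describe only its first part. Obsl1 is also expressed outside muscle fibres. Marker sums of other cell types went both ways. Endothelial markers summed to 64.1 FPKM in WT against 42.9 FPKM in SRSF1-MKO, with 5 of 5 lower. Of these, 0 were past 2-fold, where 9.44% of the 10478 genes were higher and 3.12% lower. Relative to the all-gene median, 2 of the 5 (Cdh5 and Kdr) were at least 2-fold lower, against 6.29% of genes. The median log2 ratio of the 5 was -0.56, beside 0.21 over all genes with a mean of at least 1 FPKM. Fibro-adipogenic markers summed to 548 and 388 FPKM, but only Col1a1 (276 and 121 FPKM) and Col3a1 (145 and 115 FPKM) were lower, and Pdgfra, Dcn and Lum were higher, with a median log2 ratio of 0.24 over the 5. The sums were higher in SRSF1-MKO for macrophage markers (43.9 and 101 FPKM), Schwann cell markers (34.4 and 70.0 FPKM) and satellite cell markers (6.82 and 9.84 FPKM). The sum was lower for smooth muscle markers (64.8 and 50.6 FPKM). In each of these lists 1 marker went against the sum. Mrc1 (6.79 and 5.61 FPKM), S100b (0.520 and 0.338 FPKM) and Pax7 (0.604 and 0.550 FPKM) were lower. Myh11 (8.34 and 12.5 FPKM) was higher. Lyz2 (18.1 and 56.3 FPKM) was the largest part of the macrophage sum. The part of these cells in the Obsl1 value was not tested.

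**Figure D2:**
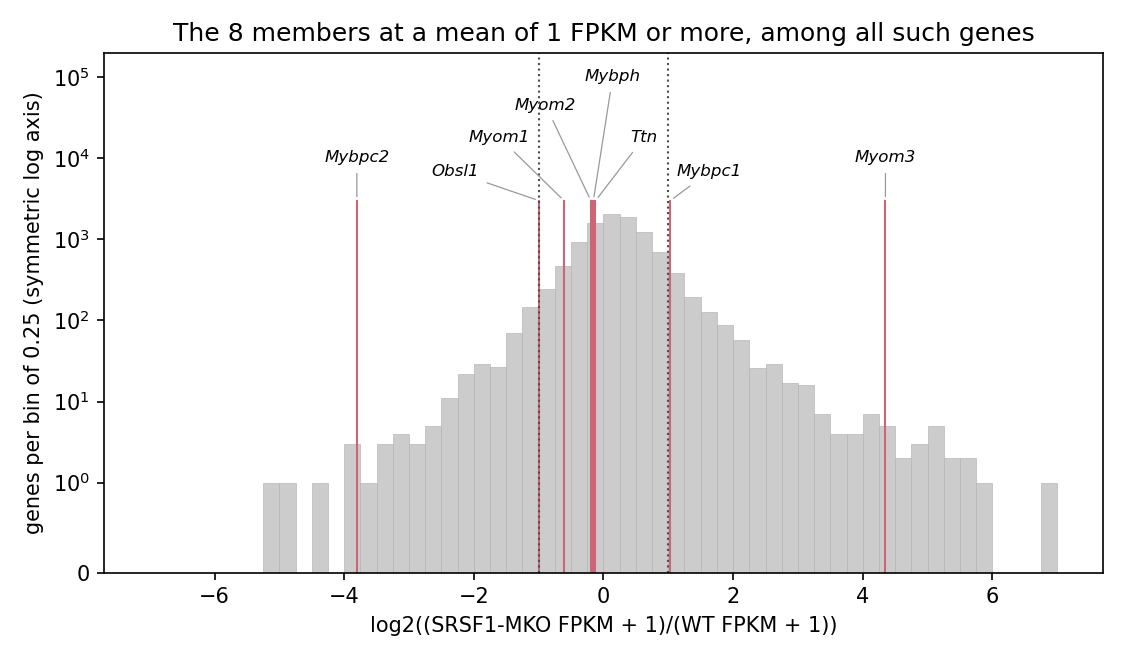
Distribution of log2((SRSF1-MKO FPKM + 1)/(WT FPKM + 1)) over the 10478 genes that passed the mean of 1 FPKM (grey bars of 0.25, symmetric log axis), with the 8 measured genes as red lines and 2-fold as dotted lines. Mybpc2 at -3.81 and Myom3 at 4.35 lie in the outer tails, Mybpc1 and Obsl1 lie at the 2-fold lines, and Ttn, Mybph and Myom2 lie between -0.19 and -0.12.

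The myosin-binding proteins C exchanged rank between the libraries. Mybpc2, the fast-type gene (ENSMUSG00000038670.11, chromosome 7, 44501699 to 44524656, minus strand), was at 1419 FPKM in the WT library against 101 in SRSF1-MKO. It ranked 40th among all genes in WT and 448th in SRSF1-MKO, and its log2 ratio of -3.81 was the 4th lowest among the 10478 genes. The difference was 14.1-fold (interval 13.8 to 14.4). Mybpc1, the slow-type gene (ENSMUSG00000020061.17, chromosome 10, 88518279 to 88605152, minus strand), had 241 FPKM in the WT library compared with 492 in SRSF1-MKO. It was 2.04-fold higher (interval 2.02 to 2.07; log2 ratio 1.03), which is 0.71 relative to the all-gene median and then below 2-fold. Mybpc3, the cardiac gene (ENSMUSG00000002100.15, chromosome 2, 91118144 to 91136516, plus strand), was listed at 0 in WT and at 0.0110 FPKM in SRSF1-MKO. The latter corresponds to 1 read, and 3 reads in WT would have given 0.0305 FPKM, so it was not detectable at this depth in WT and no ratio is given.

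Of 6 cardiac markers, 3 reached a mean of 1 FPKM (Myh6, Nppb and Sln). In SRSF1-MKO these 3 were higher by at least 2-fold, against 9.44% of the 10478 genes. Relative to the all-gene median 2 were, against 5.13%. Myh6 and Nppb reached that mean only through their SRSF1-MKO values, which makes a higher call likely, so no conclusion is drawn from this count. The cardiac heavy chain gene Myh6, a close copy of Myh7 that can share its reads, was at 0.392 and 2.19 FPKM. The atrial light chain gene Myl7 was listed at 0 in both libraries, and the natriuretic peptide genes Nppa and Nppb were listed at 0 in WT and at 0.790 and 2.28 FPKM in SRSF1-MKO. The 6 cardiac markers summed to 2.43 FPKM in WT against 126 FPKM in SRSF1-MKO, of which sarcolipin (Sln), which skeletal muscle can express too, gave 1.83 and 120 FPKM.

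The promoters of the 3 genes past 2-fold and of Mybpc3 are printed to show the sequence that starts each transcript. Each runs from 250 bases before the RefSeq start to 50 after it (GRCm38.p6), and capitals mark E-boxes, MCAT, MEF2, CArG and TATA motifs. Mybpc2 is chr7:44524620-44524919 on the minus strand, Mybpc1 is chr10:88605103-88605402 on the minus strand, Myom3 is chr4:135759465-135759764 on the plus strand, and Mybpc3 is chr2:91117894-91118193 on the plus strand.
Mybpc2: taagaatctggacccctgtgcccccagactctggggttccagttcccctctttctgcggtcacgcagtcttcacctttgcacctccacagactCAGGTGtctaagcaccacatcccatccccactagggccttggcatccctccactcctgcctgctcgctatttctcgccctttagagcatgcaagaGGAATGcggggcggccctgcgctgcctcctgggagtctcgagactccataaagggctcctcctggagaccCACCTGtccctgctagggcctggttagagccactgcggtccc
Mybpc1: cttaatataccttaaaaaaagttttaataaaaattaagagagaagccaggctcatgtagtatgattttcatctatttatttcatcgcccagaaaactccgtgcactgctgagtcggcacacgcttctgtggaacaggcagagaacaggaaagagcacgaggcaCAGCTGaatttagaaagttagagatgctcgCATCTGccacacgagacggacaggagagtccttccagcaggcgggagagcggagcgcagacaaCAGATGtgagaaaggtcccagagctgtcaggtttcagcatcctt
Myom3: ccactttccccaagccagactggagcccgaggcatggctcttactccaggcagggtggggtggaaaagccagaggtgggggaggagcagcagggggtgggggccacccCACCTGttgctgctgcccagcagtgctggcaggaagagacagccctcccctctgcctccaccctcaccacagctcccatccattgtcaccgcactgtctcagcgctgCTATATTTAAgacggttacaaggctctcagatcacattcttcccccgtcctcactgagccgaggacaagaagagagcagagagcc
Mybpc3: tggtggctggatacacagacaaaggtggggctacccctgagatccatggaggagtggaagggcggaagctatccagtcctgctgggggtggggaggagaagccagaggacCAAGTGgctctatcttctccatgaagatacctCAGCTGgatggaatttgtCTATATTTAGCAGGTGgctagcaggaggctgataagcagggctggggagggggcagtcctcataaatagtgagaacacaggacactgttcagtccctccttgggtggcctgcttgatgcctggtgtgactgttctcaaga
Promoters were matched for 8 of the 9 genes, Myom2 being without an entry, and were searched on both strands. The E-box, the CANNTG sequence that myogenic bHLH factors bind, was in 8 of 8 promoters, but also in 72.3% of the 32851 promoters in the RefSeq table. The MEF2 motif was in 3 of 8 (Ttn, Myom3 and Mybpc3), against 3.19% of all promoters. In Myom3 it begins 35 bases before the start and in Mybpc3 90 bases before it, although Myom3 had 4852 reads in SRSF1-MKO and Mybpc3 had 1. The MCAT motif, CATTCC or GGAATG on the other strand, was in 3 of 8 (Ttn, Mybpc2 and Mybph), against 14.7%. Mybpc1 held 3 E-boxes and neither of these motifs. The CArG box was in 1 of 8 (Myom1), against 1.63%. The TATA box, TATAAA or TTTATA on the other strand, was in 1 of 8 (Mybph), against 13.6%. In Mybph the match read TTTATA in the direction of transcription. Motifs of different names did not overlap in the printed sequences. A match is a description of the letters in this window and not evidence of binding.

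Within each library, the shares of the isoform genes need no scaling between libraries. Mybpc2 made up 85.5% of the summed Mybpc1, Mybpc2 and Mybpc3 FPKM in WT against 17.0% in SRSF1-MKO. Mybpc1 made up 14.5% in WT and 83.0% in SRSF1-MKO, so the majority isoform gene differed between the libraries. The ratio of Mybpc2 to Mybpc1 FPKM was 5.89 in WT against 0.204 in SRSF1-MKO. The myomesin family showed no such exchange. Myom2 stayed the majority gene, at 56.4% in WT and 59.3% in SRSF1-MKO. Myom1 made up 43.4% and 34.2%, and Myom3 0.138% and 6.48%. For comparison, Myh4, the type 2B heavy chain, made up 95.6% of the summed sarcomeric heavy chain FPKM in WT against 51.9% in SRSF1-MKO. The heavy chains of type 2X and type 2A fibres, Myh1 and Myh2, together with embryonic Myh3, slow Myh7 and neonatal Myh8 made up the rest. Slow Myh7 had a share of 0.156% in SRSF1-MKO, beside the 83.0% share of slow-type Mybpc1. These heavy chain genes are close in sequence, so their single shares carry the uncertainty of shared reads.

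**Figure D3:**
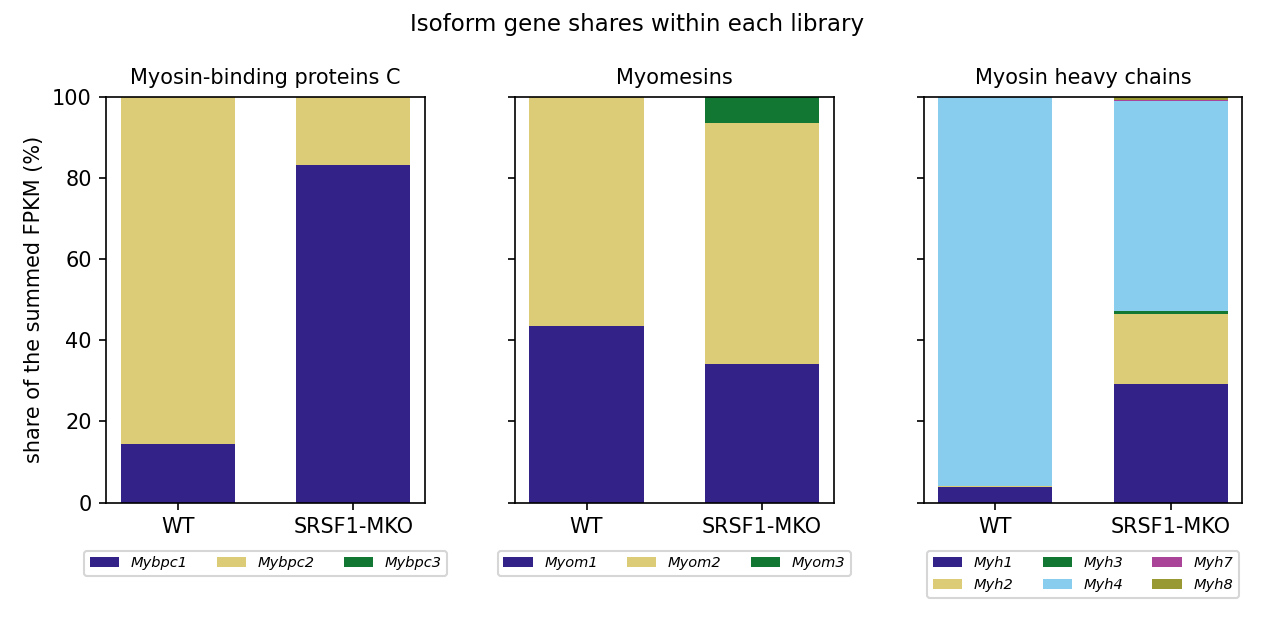
Shares of summed FPKM (%) within the WT and SRSF1-MKO libraries for the myosin-binding protein C genes (left), the myomesin genes (middle) and the sarcomeric myosin heavy chain genes (right), 1 library per bar. Mybpc2 fills 85.5% of the WT bar and 17.0% of the SRSF1-MKO bar, whereas Myom2 is at 56.4% and 59.3%.

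Mybph, myosin-binding protein H, a smaller relative of the C proteins (ENSMUSG00000042451.12, chromosome 1, 134193448 to 134201232, plus strand), measured 156 FPKM in WT against 140 FPKM in SRSF1-MKO. On 9469 and 7829 reads this is a ratio of 0.896 (interval 0.870 to 0.924). The log2 ratio of Mybph was -0.16, and -0.48 relative to the all-gene median. In WT its level was below that of Mybpc1, and in SRSF1-MKO it was above that of Mybpc2.

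Since these proteins bind or align myosin, their levels were also set against the 6 sarcomeric heavy chains (Myh1, Myh2, Myh3, Myh4, Myh7 and Myh8), whose summed level was 30105 FPKM in WT against 13832 FPKM in SRSF1-MKO, 2.18-fold lower. Per 100 FPKM of heavy chain, titin was at 0.599 FPKM in the WT library against 1.20 in SRSF1-MKO. The myomesin sum was at 2.51 and 4.54 on the same scale, and Mybph at 0.519 and 1.01. These 3 quantities were thus 1.81 to 1.996 times as high relative to heavy chain in SRSF1-MKO as in WT, although their FPKM was not higher. A gene with equal FPKM in both libraries would be 2.18 times as high on this scale, so the rise follows from the lower heavy chain sum. The myosin-binding protein C sum was 1660 FPKM in WT against 593 FPKM in SRSF1-MKO, 5.51 and 4.29 per 100 FPKM of heavy chain. In the deposited FPKM, that sum was therefore the member of this comparison that was lower relative to heavy chain, at a ratio of 0.778. This ratio depends on the gene length used for Mybpc1, 5665 bases as recovered against 3922 in GENCODE. The shorter length would give Mybpc1 more weight in the sum and raise the ratio. Whether the sum would still be lower relative to heavy chain was not tested. Obsl1 was at 0.0525 and 0.0539, a ratio of 1.03. The sources used here do not say how reads shared between heavy chain genes were counted, and the part of such reads in the sum was not tested.

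**Figure D4:**
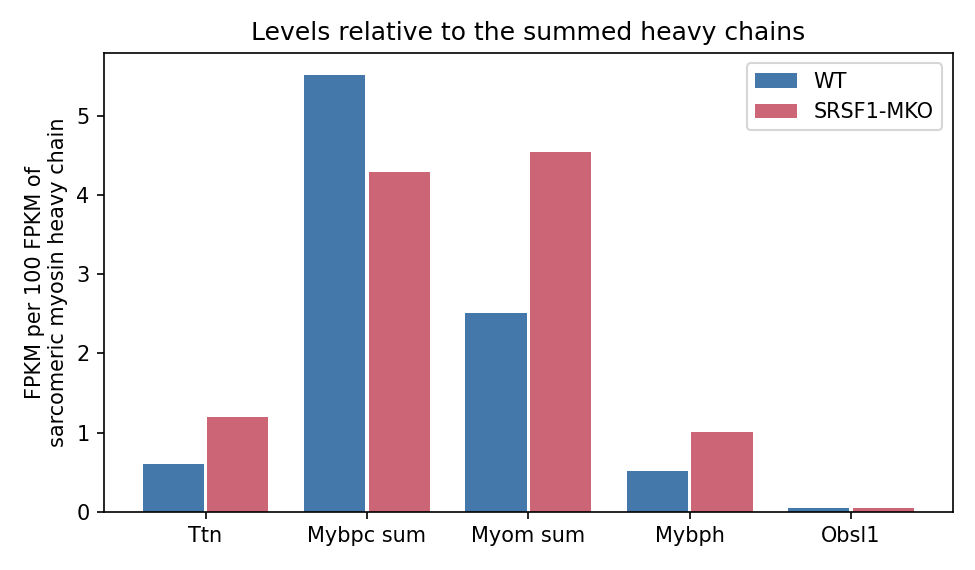
FPKM per 100 FPKM of summed sarcomeric myosin heavy chain in the WT and SRSF1-MKO libraries, 1 library per bar. Titin, the myomesin sum and Mybph are higher in SRSF1-MKO on this scale (titin 0.599 and 1.20), the Mybpc sum is lower (5.51 and 4.29), and Obsl1 is close to 0 in both.

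Many genes on a list of titin partners, proteins that bind titin directly or through another protein, differed by more than titin itself. Of 19 such partners, 18 reached a mean of 1 FPKM; 9 of these had at least 2-fold more in SRSF1-MKO, against 9.44% of the 10478 genes, and 4 at least 2-fold less, against 3.12%. Their median log2 ratio was 0.88, beside 0.21 over all genes at that mean. Relative to the all-gene median, 7 were higher and 4 lower, against 5.13% and 6.29% of genes. The 4 highest were Csrp3, a LIM protein of the Z-disc, at 1.32 and 252 FPKM, then the spring-region ankyrin protein Ankrd2 at 7.23 and 471 FPKM, the LIM protein Fhl1 at 20.1 and 658 FPKM, and Ankrd1 at 12.7 and 228 FPKM. The partners did not move as a block, even within a family. Ankrd23, the third ankyrin protein of the titin spring, had 330 FPKM in the WT library compared with 164 in SRSF1-MKO. At the M-band end, the ubiquitin ligase Trim63 was at 87.1 and 223 FPKM and its relative Trim55 at 45.4 and 19.0 FPKM, while the third relative, Trim54, was at 121 and 128 FPKM. Capn3, the protease bound to titin, was at 35.5 and 16.9 FPKM, and muscle creatine kinase (Ckm), which also locates to the M-band, at 6495 and 2397 FPKM. Tcap, the cap of titin at the Z-disc, was 2.19-fold higher at 802 and 1760 FPKM. The levels of Mypn (60.4 and 61.8 FPKM) and Nbr1 (16.7 and 19.3 FPKM) were nearly alike.

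**Figure D5:**
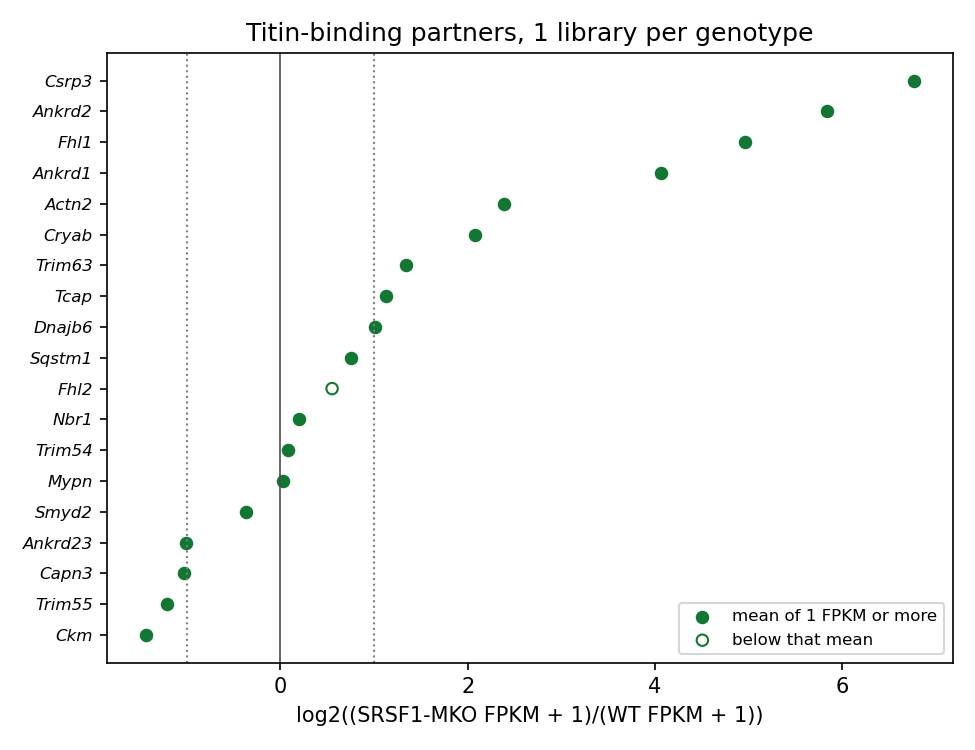
log2((SRSF1-MKO FPKM + 1)/(WT FPKM + 1)) of the 19 titin partners, ordered by value, with 2-fold as dotted lines and an open point for Fhl2, whose mean is below 1 FPKM. Values run from -1.44 for Ckm to 6.77 for Csrp3.

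Of 12 genes of thick-filament assembly, 0 were at least 2-fold higher, where 9.44% of the 10478 genes were, and 1 was at least 2-fold lower, where 3.12% were. Most genes at that mean lay within 2-fold, so this count does not set the list apart. The 12 had a median log2 ratio of -0.02. The lower member was Unc45b, the myosin-folding chaperone of striated muscle, at 54.9 FPKM in WT, against 24.6 in SRSF1-MKO, a 2.23-fold difference (interval 2.11 to 2.35). Its partner Hsp90aa1 was at 63.4 and 110 FPKM, and Smyd1, a muscle methyltransferase needed for myofibril assembly, at 65.7 and 46.8 FPKM. The widely expressed Unc45a was at 2.69 and 3.79 FPKM, far below Unc45b in each library.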

How the data were processed

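RNA was sequenced from 1 WT and 1 SRSF1-MKO library. The authors deposited FPKM values, with a column per genotype, the unit being taken from the name and values; Bowtie and mm10 are named in the submitters' processing notes, while the annotation and strandedness are not stated in the sources used here. A single line of the table (1) was empty and is not analysed here. Genes were matched by symbol, and models came from GENCODE M21 (GRCm38), promoters from RefSeq (GRCm38.p6).

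FPKM steps by a fixed amount per read. For the 19044 genes with nonzero values in each library, the FPKM ratio was divided by a constant shared by all. In 92.8% the result was a fraction of whole numbers (denominators up to 3000, relative tolerance 1e-12). Several library totals were possible, and the one whose implied gene lengths lay closest to GENCODE was used. It gave 23146640 reads for WT and 21350284 for SRSF1-MKO. A WT total of 11573320 divided more genes (2348 against 2159), but implied lengths 2.00 times those of GENCODE. Reads per gene are the fewest, in parts down to 0.1, that give both values; for Myom2 and Mybpc2 no such number was found and the longest GENCODE transcript was used.

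Ratios are log2((SRSF1-MKO FPKM + 1)/(WT FPKM + 1)), filtered at a mean of 1 FPKM, with a 2-fold size rule. Intervals are exact (Clopper-Pearson) binomial, and the floor is 3 reads. Named genes are Srsf1, all 9 members, the 6 heavy chains, the 3 splicing regulators, up to 4 genes per direction from each partner list past 2-fold, and any member of a count of 5 or fewer; Tcap, Mypn, Nbr1, Trim54, Trim63, Hsp90aa1, Smyd1, Unc45a, Xist, Ddx3y and single marker genes were named after their values were seen. The titin partner list is used without 1 gene, which is not reported here. Members and lists were chosen with earlier results of these data known. Alternatives were other pseudocounts, scalings, filters and size rules. Python 3.11.15, pandas 2.3.3 and scipy 1.17.1 were used, and scripts were tested on simulated data.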

Additional observations from a re-analysis of the deposited data

How the results depend on the processing

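Every measured member kept its direction under 5 alternatives (pseudocounts of 0.1 and 5 FPKM, subtraction of the all-gene median, rescaling to a sum of 1000000, rescaling over nuclear rows); Mybpc3, on 1 read, had a log2 ratio between -0.31 and 0.15. The log2 ratio of Myom3 ran from 2.92 to 5.16, that of Mybpc2 from -4.13 to -3.75 and that of Obsl1 from -1.33 to -0.74. Members at least 2-fold higher numbered 1 rather than 2 after median subtraction and after rescaling to 1000000, since Mybpc1 then stood at 0.71 and 0.72. Members at least 2-fold lower numbered 2 with a pseudocount of 0.1 FPKM, after median subtraction and after rescaling to 1000000, Obsl1 being added, and 3 at 1.5-fold, with Myom1. At 1.5-fold, 1 assembly gene (Hsp90aa1) was higher. As shares of reads rather than FPKM, Mybpc1 was 21.0% in WT and 88.5% in SRSF1-MKO, Mybpc2 79.0% and 11.5%, Myom1 45.9% and 36.3%, Myom2 53.9% and 56.9%, and Myom3 6.83% in SRSF1-MKO; the gene lengths used decide these. The authors' length for Mybpc1, as recovered, is 5665 bases against 3922 in GENCODE, which would lower its FPKM beside Mybpc2 in both libraries alike.

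No paired analysis was possible because each group has 1 library, so leaving out a replicate was not run. Depth limits Mybpc3 and the WT value of Myom3.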

Other observations

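Genes next to the members were looked up after the values were seen. Some lay as close to their WT level as the member did, such as Plekha3 beside Ttn, at 2.18 and 1.98 FPKM, and others differed. Myog encodes a myogenic transcription factor and is the nearest protein-coding gene to the right of Mybph that does not overlap it, at 88.8 kb. Myog measured 8.87 FPKM in WT against 64.1 FPKM in SRSF1-MKO, 7.22-fold higher (interval 6.40 to 8.17), beside Mybph at 156 and 140 FPKM. Myl12a, a regulatory light chain gene on the opposite strand whose annotated start overlaps the GENCODE model of Myom1, was at 25.3 and 113 FPKM, beside Myom1 at 328 and 215 FPKM; the location of Myom1 in the deposited table begins beyond that overlap. Mybphl, a relative of Mybph, was at 0.0677 FPKM in the WT library against 0.257 in SRSF1-MKO, on at least 2 and 7 reads.

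The FPKM sums of the table were 462919 in WT and 575130 in SRSF1-MKO, and rows of the mitochondrial genome and ribosomal RNA held 19.5% and 35.4% of them. Without those 70 rows the sums were 372475 and 371740.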
